A study of Mus musculus with 17 samples.

Results

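The sites described here are stretches of open chromatin that ranked among the strongest peaks of mouse macrophages after both a short and a long exposure to lipopolysaccharide (LPS), but not before it. They were chosen by peak presence. Each of the 17 peak lists was reduced to its strongest peaks, as many as the shortest list held, and peaks that touched across lists were merged into 34141 consensus sites seen in at least 2 lists. A site became a member when it carried such a kept peak in at least 4 of the 5 lists at 1 h of LPS, in at least 4 of the 6 lists at 18 h and in at most 1 of the 6 lists at 0 h. This gave 666 members. Presence at 1 h and at 18 h against 0 h therefore defined the members and is given below as a description without a test.

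The assay was ATAC-seq: a transposase, Tn5, inserts sequencing adapters into DNA that is not covered by nucleosomes, and the reads pile up over open regions. The cells were bone marrow-derived macrophages (BMDMs) of male C57Bl6/J mice aged 6 to 12 weeks, grown for 7 days in L929-conditioned medium and given 0, 1 or 18 h of 100 ng/ml LPS, the bacterial cell wall component that activates Toll-like receptor 4. Wild-type cells (WT, 8 lists) were compared with cells lacking Nur77 (KO, 9 lists), the nuclear receptor encoded by Nr4a1. The labels give the KO genotype as cre; per the study's methods, Nr4a1 was deleted in the whole body with a CMV-driven Cre that was later bred out, and the WT cells came from littermates, so the loss is not limited to macrophages. There were 3 lists per genotype and time, apart from WT at 1 h with 2, one of which the labels number replicate 1-2. No source says which lists share a mouse or culture, so p-values measure the spread between these lists, which may be technical.

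An unstimulated macrophage keeps much of its inflammatory DNA wrapped in nucleosomes. LPS sends NF-kB to the nucleus within minutes and induces the AP-1 proteins Fos and Jun, which together with the resident factors PU.1 and C/EBP can displace nucleosomes at enhancers and promoters; interferon made by the cells later brings STAT and IRF factors to the interferon-stimulated response element (ISRE). Some of the regions opened in this way close again as the signal fades, while others stay accessible. Nur77 binds the NBRE motif and is itself an immediate-early gene of macrophage activation.

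The promoters of the macrophage markers Adgre1, Itgam, Spi1 and Mertk carried a kept peak in 17 of the 17 lists, Lyz2 in 16, Fcgr1 in 15 and Csf1r and Cd68 in 12, and those of the 4 T cell and 3 B cell markers in 0. Among markers of other cells, S100a8 had a promoter peak in 15 lists, Col1a1 in 14 and Zbtb46 in 13, while Ly6g, Elane, Flt3 and Col1a2 had 0 and Pdgfra 1. No deposited peak overlapped a coding exon of Nr4a1 in any of the 17 lists, WT included, so the genotype could not be checked in these files. Depth was uneven: the last kept peak rested on 3 reads in WT 1 h replicate 1-2, the shallowest list, and on 69 reads in WT 0 h replicate 3. KO 18 h replicate 1 stood apart by its narrow peaks, with a median width of 167 bp against 338 to 1241 bp in the other lists.

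To show what such sites look like, the DNA around the summit of 8 members near genes of the LPS response is given, read from the GRCm38 (mm10) plus strand over at most 100 bp on either side of the summit and cut where an annotated exon begins. Capitals mark matches to the motifs of AP-1 (TGACTCA or TGAGTCA), NF-kB, C/EBP and ISRE on either strand. All 8 hold a match, whereas 39.9% of members held none of these 4 motifs, so the 8 do not stand for all members. The members lie in or near Ptges (chr2:30925272-30925472), the Ccl5 promoter (chr11:83530519-83530677), Cd44 (chr2:102873468-102873668), Il12b (chr11:44390180-44390380), the Cxcl2 promoter (chr5:90903713-90903870), Cd274 (chr19:29385035-29385235), the Nos2 promoter (chr11:78920580-78920780) and Cd69 (chr6:129230281-129230481).
Ptges, AP-1: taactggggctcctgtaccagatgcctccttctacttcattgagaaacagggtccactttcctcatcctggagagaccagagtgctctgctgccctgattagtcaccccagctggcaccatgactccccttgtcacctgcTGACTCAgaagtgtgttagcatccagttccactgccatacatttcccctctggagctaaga
Ccl5, NF-kB: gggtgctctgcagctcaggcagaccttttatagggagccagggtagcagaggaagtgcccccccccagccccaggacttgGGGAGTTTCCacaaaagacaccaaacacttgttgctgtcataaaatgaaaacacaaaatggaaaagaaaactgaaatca
Cd44, NF-kB: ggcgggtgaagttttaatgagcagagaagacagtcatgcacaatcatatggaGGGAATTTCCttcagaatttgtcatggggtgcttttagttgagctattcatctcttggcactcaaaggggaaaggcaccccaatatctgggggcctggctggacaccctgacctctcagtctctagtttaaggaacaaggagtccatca
Il12b, NF-kB: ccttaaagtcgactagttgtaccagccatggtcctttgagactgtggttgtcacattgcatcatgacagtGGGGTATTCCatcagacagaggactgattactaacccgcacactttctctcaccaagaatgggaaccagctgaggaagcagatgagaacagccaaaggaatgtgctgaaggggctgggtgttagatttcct
Cxcl2, NF-kB: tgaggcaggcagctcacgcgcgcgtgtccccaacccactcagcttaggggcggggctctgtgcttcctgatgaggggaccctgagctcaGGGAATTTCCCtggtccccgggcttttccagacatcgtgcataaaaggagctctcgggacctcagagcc
Cd274, AP-1 and C/EBP: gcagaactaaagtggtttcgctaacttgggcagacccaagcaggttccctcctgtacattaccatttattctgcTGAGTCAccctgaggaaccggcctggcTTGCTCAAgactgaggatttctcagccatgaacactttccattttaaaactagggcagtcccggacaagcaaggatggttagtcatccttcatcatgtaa
Nos2, NF-kB and C/EBP: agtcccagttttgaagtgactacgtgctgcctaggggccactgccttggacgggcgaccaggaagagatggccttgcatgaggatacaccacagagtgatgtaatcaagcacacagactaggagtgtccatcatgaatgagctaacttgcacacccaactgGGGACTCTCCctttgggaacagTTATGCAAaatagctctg
Cd69, ISRE: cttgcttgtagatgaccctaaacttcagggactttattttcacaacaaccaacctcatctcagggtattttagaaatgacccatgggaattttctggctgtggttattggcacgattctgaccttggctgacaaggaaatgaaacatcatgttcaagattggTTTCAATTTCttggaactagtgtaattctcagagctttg

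Of the 666, 224 carried a kept peak in every one of the 11 LPS lists, and 166 of those in none of the 0 h lists. Over all members, 485 were absent from the kept peaks of every 0 h list and 181 were present in 1. At the edge of the rule, 55 members had the minimum of 4 lists at both times. Just outside it were 193 sites present in 3 of 5 lists at 1 h, 123 present in 3 of 6 lists at 18 h and 146 present in 2 of 6 lists at 0 h that met the other limits.

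Judged by single lists, a kept peak was present at 2.85% ± 0.751 (SD, n = 3) of members in WT at 0 h and at 6.21% ± 3.19 (n = 3) in KO at 0 h. At 1 h the WT share was 89.9% ± 8.49 (n = 2) and the KO share 95.8% ± 3.46 (n = 3). At 18 h the WT share was 95.1% ± 1.46 (n = 3) and the KO share 81.1% ± 12.3 (n = 3). The lowest LPS shares were those of the shallowest list, WT 1 h replicate 1-2, with 83.9%, and of the list with the narrowest peaks, KO 18 h replicate 1, with 67.3%.

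**Figure D1:**
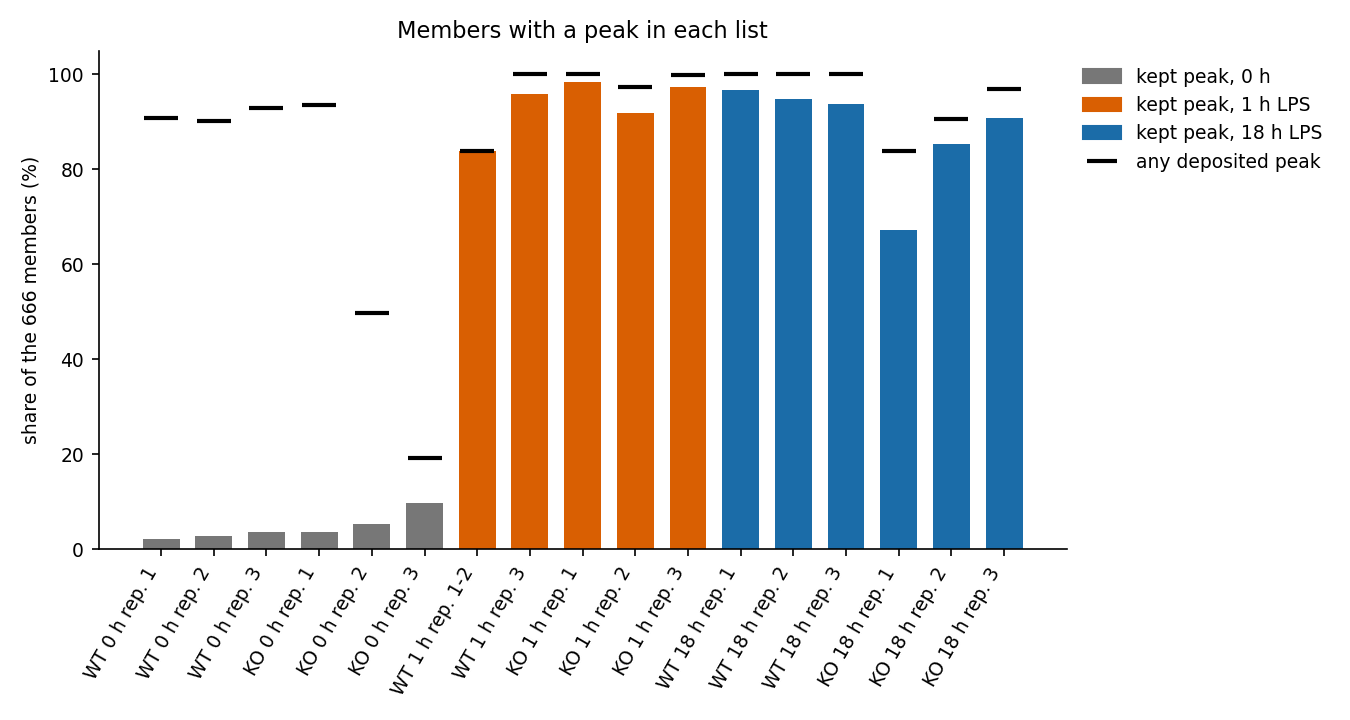
Share of the 666 members (vertical axis, %) with a peak in each of the 17 lists (horizontal axis). Bars count kept peaks, an equal number of the strongest of each list, in grey for 0 h, orange for 1 h and blue for 18 h of LPS; black dashes count any deposited peak. The bars are low at 0 h because the members were chosen so, whereas the dashes reach 93.5% in KO 0 h replicate 1.

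Most members carried a weak peak before LPS. When the whole deposited lists were read, weaker peaks included, 91.3% ± 1.42 (SD, n = 3) of members carried a peak in the WT 0 h lists. In KO at 0 h the shares were 93.5%, 49.8% and 19.2% for replicates 1 to 3, in lists that held 70397, 37514 and 27429 peaks. The part of list length in these shares was not tested. In the WT lists the median rank of these 0 h peaks lay between 32461 and 33131, beyond the last kept rank. Opening here thus stands for a rise in rank, and 40 members had a peak in at most 1 of the 6 whole 0 h lists. In these bulk samples a site open in fewer cells and a site less open in each cell cannot be told apart.

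In 29 members no deposited peak of any 0 h list was found (4.35%). These were named after their values were seen. The strongest was the promoter of Ccl5, which encodes a chemokine for T cells and monocytes. Others lay near Ell2 (a transcription elongation factor), at a second site in Ptges, near Tnfaip3 (A20, an enzyme that restrains NF-kB signalling), near Il1a and Il1b (interleukin 1), near Ptgs2 (cyclooxygenase 2), in Traf1 (an adaptor of TNF receptors), in the gene body of Bcl2a1a (a survival protein) and at 2 sites by the miR-155 host gene. The depth of a list limits this count, since a weak peak cannot be seen in a shallow list.

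The members lay away from promoters. A promoter, meaning DNA within 1 kb of a TSS (the start of a protein-coding transcript), held the summit of 47 members (7.06%, 95% Wilson interval 5.35 to 9.26), against 30.2% of all consensus sites. Introns held 344 members (51.7%), intergenic DNA 252 (37.8%) and exons 23 (3.45%), whereas over all sites the shares were 37.4%, 27.7% and 4.66%. Sites kept only at 1 h (at least 4 of 5 lists at 1 h, at most 1 of 6 at 18 h and at 0 h, 1089 sites) and only at 18 h (1264 sites, chosen in the same way) had promoter shares of 5.33% and 5.22%, with intervals that overlapped that of the members. The median distance to the nearest TSS was 18648.5 bp for members and 8304 bp for all sites, and the median GC content of the 201 bp around the summit was 47.8% and 51.7%. Chromosome 2 held the most members (76 of its 2822 sites, 2.69%), the share was highest on chromosome 16 (2.99%), and 2 of 527 sites on chromosome X were members (0.380%). Peaks tied at the last kept rank were ordered by chromosome as text. That tie held from 0.107% (KO 0 h replicate 1) to 13.9% (KO 1 h replicate 2) of the kept peaks. With chromosomes in number order, 678 sites were members, 636 of them also members here. The part of tie order in the chromosome shares was not tested.

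Of the 9 motifs sought, NF-kB had the largest ratio between members and all sites. Within 100 bp of the summit, 121 members (18.2%, 95% Wilson interval 15.4 to 21.3) held it, against 13.4% (11.5 to 15.6) of sites kept only at 1 h, 4.19% (3.22 to 5.44) of sites kept only at 18 h and 4.82% of all sites. Among these, 14 members (2.10% of 666) held it at 2 or more separate positions, as did 0.228% of all sites. The matches lay close to the summit: 44.5% of the 155 NF-kB matches in members, overlapping ones included, were centred within 25 bp of it, against 32.9% of 2013 matches over all sites. NF-kB was sought as its 10-base consensus, on both strands.

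AP-1 was about as frequent as in sites kept only at 1 h, with overlapping intervals. It was present in 165 members (24.8%, 21.6 to 28.2), in 28.4% (25.8 to 31.1) of sites kept only at 1 h, in 16.6% (14.7 to 18.8) of those kept only at 18 h and in 16.2% of all sites. The C/EBP motif (TTACNNAA or TTGCNNAA) showed the reverse order, with 24.5% (21.4 to 27.9) of members between 17.9% (15.7 to 20.3) of sites kept only at 1 h and 31.6% (29.1 to 34.3) of sites kept only at 18 h, and 16.9% over all sites. The ISRE was found in 8.41% (6.53 to 10.8) of members, 4.96% (3.82 to 6.41) of early sites, 7.28% (5.97 to 8.84) of late sites and 3.63% of all sites.

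**Figure D2:**
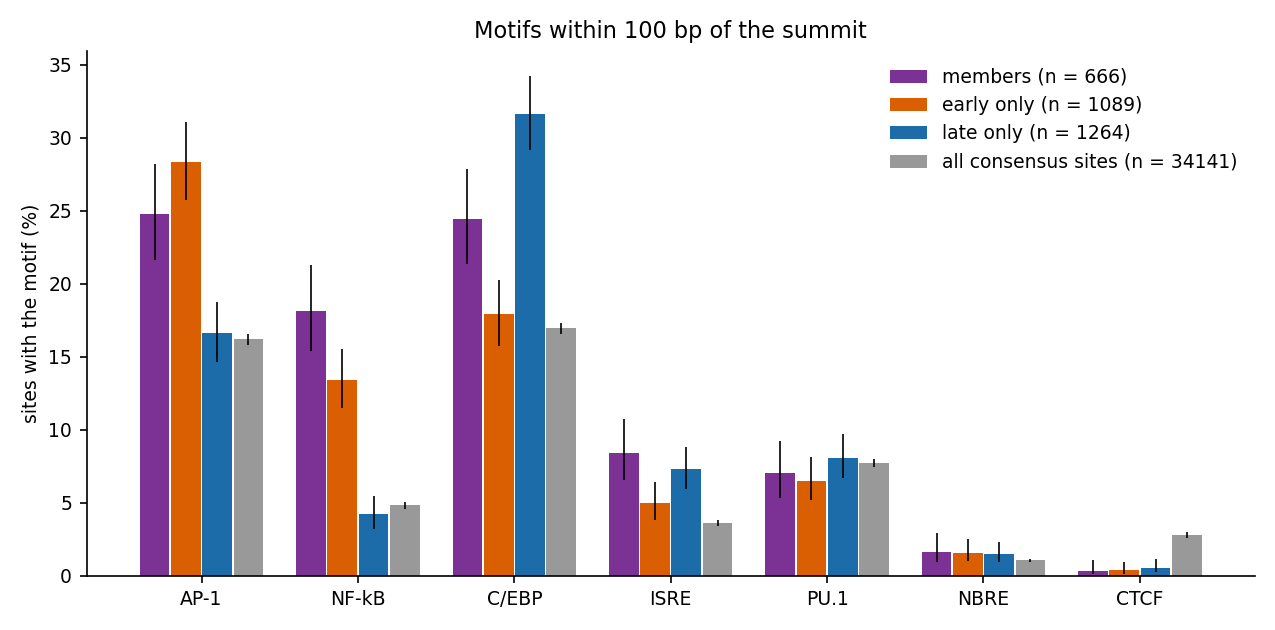
Share of sites (vertical axis, %) with each of 7 motifs (horizontal axis) within 100 bp of the summit, for members, sites kept only at 1 h, sites kept only at 18 h and all consensus sites. Lines are 95% Wilson intervals over sites, which are not replicates. NF-kB is at 18.2% in members and 4.19% in late sites, and C/EBP in members lies between the early and late sites.

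Pairs of motifs were counted as well. NF-kB and C/EBP occurred together in 24 members (3.60%, 2.43 to 5.31), against 1.84% of early, 1.74% of late and 0.735% of all sites. AP-1 and NF-kB shared 23 members (3.45%), against 3.21%, 0.396% and 0.779%. None of the 4 motifs was found in 266 members (39.9%, 36.3 to 43.7), fewer than the 47.3% of early, 49.4% of late and 64.0% of all sites. Of the remaining motifs, PU.1 (GAGGAAGT) was in 7.06% of members and 7.72% of all sites, CTCF, an insulator protein, in 0.300% against 2.78%, and CRE (TGACGTCA) in 0.450% against 1.22%. The NBRE (AAAGGTCA) of Nur77 was in 11 members (1.65%, 0.925 to 2.93) and in 1.04% of all sites. The MARE was 1.65% of members and 0.770% of all sites; it holds an AP-1 motif, so these matches overlap.

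Distance from promoters moved with these shares. Over 1 kb from a TSS, the members held NF-kB at 18.3%, AP-1 in 155 of 619, C/EBP at 24.6% and ISRE at 7.75%, while all such sites held them at 5.20%, 21.5%, 20.8% and 4.28%. The gap to all sites was thus smaller for AP-1 and C/EBP than with promoters included, and for NF-kB it was still more than 3-fold. A motif match is a description of the letters and does not show that the factor was bound.

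**Figure D3:**
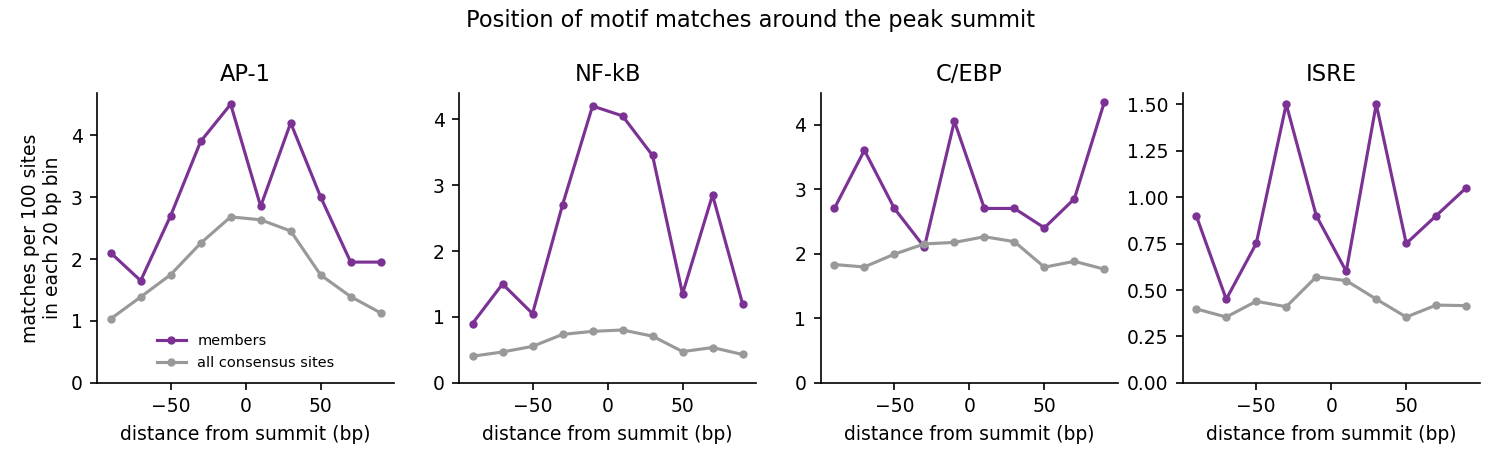
Matches per 100 sites in 20 bp bins (vertical axis) by distance of the match from the summit in bp (horizontal axis) for AP-1, NF-kB, C/EBP and ISRE; purple, the 666 members; grey, all 34141 consensus sites. NF-kB matches of members gather around 0 bp, where 44.5% lay within 25 bp.

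The strongest members combined inflammatory and unrelated neighbours. Peaks are compared by their rank inside a list, where 1 is the strongest, since fold and p-value scale with depth. The best mean rank over the 11 LPS lists was that of an intron of Ptges (chr2:30924759-30926101), the synthase that makes prostaglandin E2. It ranked 2608.5 and 3568 in WT at 1 h, 5168.5, 2182.5 and 5250 in KO at 1 h, 4452.5, 4699.5 and 2488 in WT at 18 h, and 1585.5, 3038 and 2411 in KO at 18 h. At 0 h its rank was 33131 to 44974.5 in 4 lists and it had no peak in KO replicates 2 and 3. All LPS lists therefore lay far above all 0 h lists, and the ranges at 1 and 18 h overlapped.

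The Ccl5 promoter (chr11:83520735-83531094) came second. This site is wide because neighbouring peaks were joined by merging, and its summit lay 59 bp upstream of the TSS. Its ranks were 5848.5 and 3147 in WT at 1 h, 3526.5, 5022 and 3355.5 in KO at 1 h, 2616, 2286 and 3754.5 in WT at 18 h, and 3640, 3823.5 and 1030 in KO at 18 h. The times overlapped here too, and no 0 h list had a peak. The other 8 of the 10 best ranked lay in introns of Ttc39c, Mmp14 (a membrane-bound matrix metalloproteinase), Rab31 (a vesicle GTPase), Vmp1 (an autophagy protein), Adora2a (an adenosine receptor), Tnfrsf8 (CD30) and Cd44 (the hyaluronan receptor), and 9783 bp upstream of Il12b, which encodes the p40 subunit of interleukins 12 and 23.

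The strength of members was then compared between 1 h and 18 h. The rule did not use this difference itself, but it used the presence of a kept peak at both times, and a missing peak enters the score as 0, so the calls are not independent of the rule. The rank score of a site in a list was the log2 of the number of kept peaks plus 1, divided by the peak's rank, so that a difference of 1 is a rank ratio of 2, and 0 where no kept peak was present. With limma over all 34141 sites, the mean of both genotypes, and Benjamini-Hochberg adjustment over all sites, 308 of the 666 members were called at an adjusted p below 0.05. This was 46.2% of members, beside 28.9% of all sites. With all deposited peaks the order was the reverse, 30.5% of members and 35.7% of all sites. In the fit over kept peaks, 102 members (15.3% of the 666) rose at 18 h and 206 (30.9%) fell. Over all sites tested 13.7% were called higher and 15.2% lower, so the share of members that rose was near the background and the share that fell was about 2-fold above it. With all deposited peaks, 72 members rose and 131 fell, beside 6250 and 5926 of all sites, and this 2-fold excess was not seen. The median change was −0.15 among members and 0.02 over all sites.

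The rule let a member miss 2 lists at 18 h but only 1 at 1 h, and a missing peak lowers the score at its time. Among the 224 members present in every LPS list, 38 rose and 62 (27.7%) fell, with a median change of −0.07. Other sites present in every LPS list were not counted. The exact permutation test, which regrouped lists within genotype, called 37 members higher and 96 lower, beside 1752 and 2814 of all sites. Requiring a peak to cover 50% of the site called 57 members higher and 68 lower, beside 1605 and 1404 of all sites, and the median change was then 0.03 among members and 0.05 over all sites.

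The 10 best ranked members were picked by ranks that include the 1 h and 18 h lists, so their calls are a description. Of these 10 members, 6 fell, beside 30.9% of all members and 15.2% of all sites. The largest of these falls, besides Il12b, were in Vmp1 (−2.45, SE 0.30, limma adjusted p = 1.94e-05), Tnfrsf8 (−2.13) and Mmp14 (−1.94, SE 0.25, limma adjusted p = 3.53e-05), and Adora2a (−1.38) and Cd44 (−1.36) followed. Mmp14 took the opposite sign (0.33) when a peak had to cover 50% of the site. Ptges, Ccl5, Rab31 and Ttc39c were not called, with limma adjusted p from 0.133 to 0.516.

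**Figure D4:**
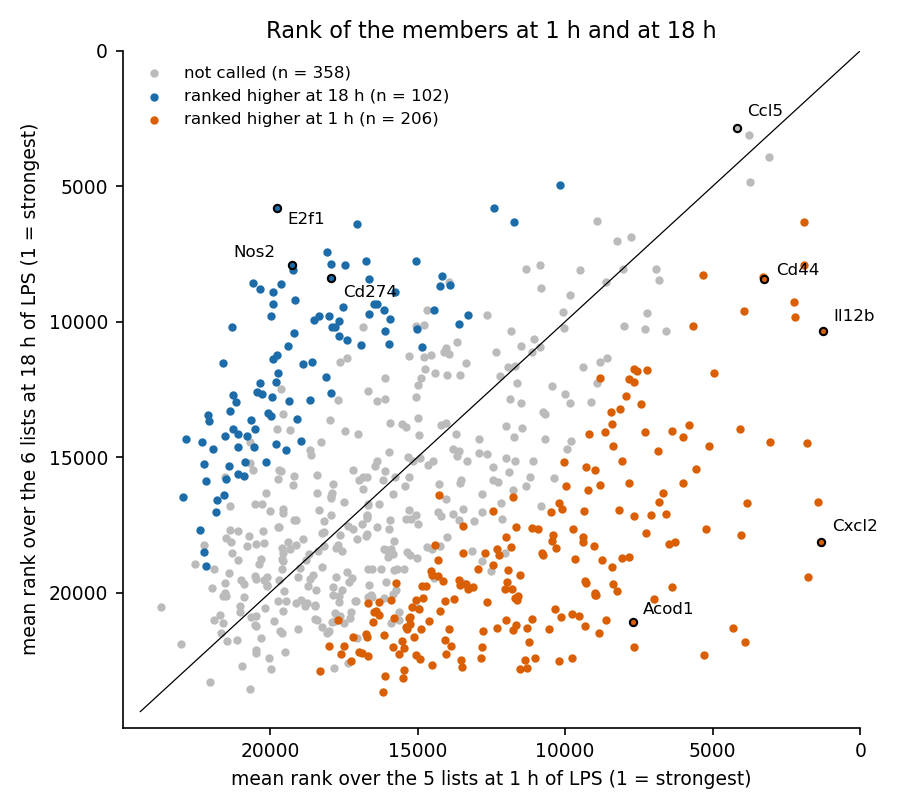
Mean rank of each of the 666 members over the 5 lists at 1 h (horizontal axis) and the 6 lists at 18 h (vertical axis), both reversed so that the strongest sites are at the top right; a list without a kept peak counts as the rank after the last kept peak. Blue points were called higher at 18 h (102), orange points higher at 1 h (206) and grey points were not called (358); 8 members are named and the line marks equal rank.

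The member that fell most had a deposited peak in every LPS list but lost rank. The largest fall was at the promoter of Cxcl2, a neutrophil chemokine (chr5:90902760-90906996), which ranked 708.5 and 884 in WT and 1434.5, 1977.5 and 1562.5 in KO at 1 h. At 18 h it ranked 17382, 17839.5 and 20622 in WT and 23854.5, 17941.5 and 10507.5 in KO. The times did not overlap, and its 0 h peaks ranked 20964.5 to 29098.5 in 5 lists, so that the 18 h and 0 h ranks overlapped. The score fell by 3.95 (SE 0.20, limma adjusted p = 7.98e-09). In this score KO 18 h replicate 1 counted as 0, since its peak was not among the kept peaks.

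Changes beyond −3 were also found in an intron of Gm47922 nearest to D10Jhu81e (−3.54), in introns of Trps1 (a GATA-type repressor, −3.45) and Cemip2 (−3.03), and upstream of Il12b. When a peak had to cover 50% of the site, the values of D10Jhu81e and Trps1 turned to 0.17 and 0.01. The Il12b site ranked 1616.5 and 1064.5 in WT and 1239.5, 544.5 and 1814.5 in KO at 1 h. At 18 h it ranked 11323.5, 13779 and 13753.5 in WT and 4006, 10733 and 8492 in KO, and the score fell by 3.02 (SE 0.30, limma adjusted p = 2.68e-06). No rank at 18 h reached those of 1 h, while all lay above the 0 h ranks of 33115.5 to 55543.

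The largest rise lay 4481 bp upstream of E2f1, a cell cycle transcription factor, with 2.04 (SE 0.37, limma adjusted p = 0.000614). At 1 h it ranked 11685 to 21602.5 in 4 lists, with no peak in WT replicate 1-2, and at 18 h 945.5 to 8684.5 in 6. Next came an intron of Ltbp2, a protein of the extracellular matrix (1.43), and the promoter of Nos2, the inducible nitric oxide synthase (chr11:78920269-78921275). The latter ranked 17413.5 and 20882 in WT and 24409.5, 17010.5 and 16571.5 in KO at 1 h, and 11874, 7201.5 and 10178.5 in WT and 4006, 8136.5 and 6086.5 in KO at 18 h. The times did not overlap and the score rose by 1.35 (SE 0.19, limma adjusted p = 8.62e-05). Sites near Ppargc1b (1.35) and at the promoter of Tgif1, a transcriptional repressor (1.32), completed the 5 largest rises.

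**Figure D5:**
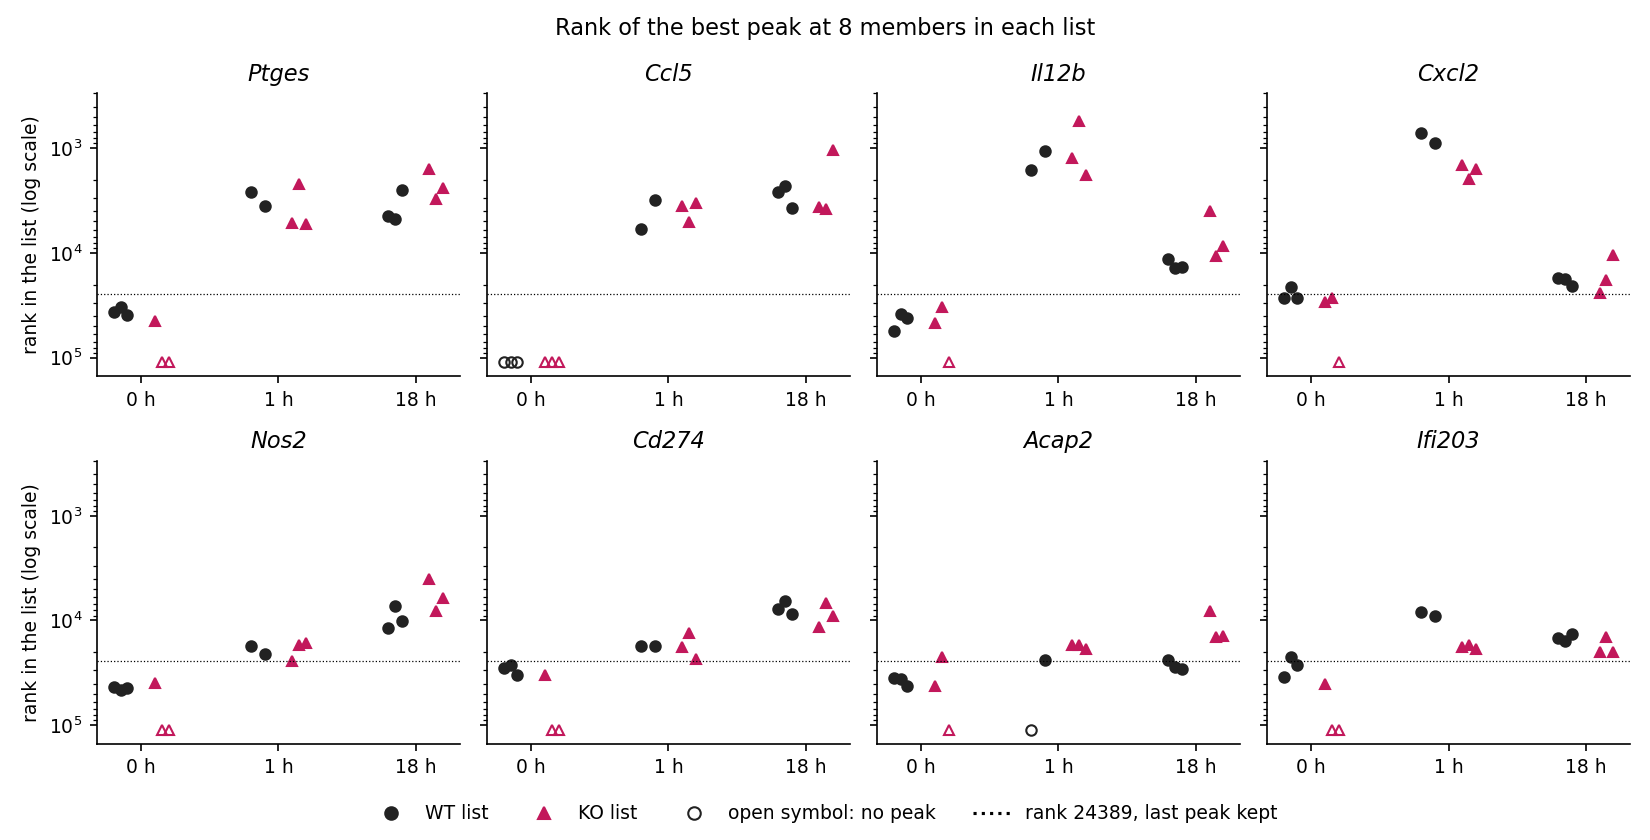
Rank of the best deposited peak (vertical axis, log scale, strongest at the top) at 8 members in each list at 0, 1 and 18 h (horizontal axis); black circles, WT; red triangles, KO; open symbols, no peak. The dotted line is the last kept rank. At Ptges and Ccl5 the ranks at 1 and 18 h overlap, Il12b and Cxcl2 fell, Nos2 and Cd274 rose at 18 h, and Acap2 and Ifi203 differed between the genotypes under LPS.

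Motifs were also counted by the direction of change from 1 h to 18 h, with no test of the difference. NF-kB was in 50 of the 206 members that fell (24.3%, 95% Wilson interval 18.9 to 30.6), in 16 of the 102 that rose (15.7%, 9.89 to 24.0) and in 55 of the 358 not called (15.4%, 12.0 to 19.5). C/EBP was in 28.4% (20.6 to 37.8) of those that rose and 20.9% (15.9 to 26.9) of those that fell, and AP-1 in 15.7% (9.89 to 24.0) and 24.8% (19.4 to 31.1). All 3 pairs of intervals overlapped. Among consensus sites that were not members, NF-kB was in 9.82% of those that fell and 2.80% of those that rose, AP-1 in 27.7% and 13.1%, and C/EBP in 15.8% and 23.1%. The order of these shares was the same as among members. Of the 121 members with an NF-kB motif, 41.3% fell and 13.2% rose.

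Members near known genes of the LPS response were counted from 9 lists of such genes, by the nearest protein-coding TSS within 100 kb, which does not show which gene a site regulates. Around the 214 listed genes found in the annotation, 53 of 929 consensus sites (5.71%) were members, against 589 of 31835 (1.85%) around all genes. Among the 53, 6 rose and 18 fell at 18 h, beside 90 and 188 of the 589. The median change was −0.20 for the 53 and −0.16 for the 589.

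Cytokine genes had 11 members near 10 of 29 genes. No member rose and 5 fell. Besides Il12b, the member 67688 bp from Csf2 (the growth factor GM-CSF) fell by 1.28 (SE 0.15, limma adjusted p = 1.72e-05) and that 27684 bp downstream of Lif, a cytokine of the interleukin 6 family, by 0.76 (SE 0.13, limma adjusted p = 0.000344). Near Ifnb1 (interferon beta) the member fell by 0.84 (limma adjusted p = 1.61e-05), and the last of the 5 lay 1881 bp upstream of Il1a. A member 6369 bp upstream of Osm, a cytokine of the same family, had a change of 0.09 (SE 0.20, limma adjusted p = 0.769). Chemokine genes had 3 members, near Ccl5, Cxcl2 and Cxcl1, of which that of Cxcl2 fell. The Ccl5 promoter had a change of 0.64 (SE 0.31, limma adjusted p = 0.133).

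Genes of NF-kB and its regulators had 6 members near 3 of 22 genes, of which 3 fell. All 3 belonged to inhibitors of the pathway. The member 62481 bp upstream of Tnfaip3 (chr10:19077567-19078703) ranked 11828 and 4039 in WT and 7091.5, 9346 and 6785 in KO at 1 h, and 16878.5, 19773.5 and 13372 in WT and 11542, 15965 and 18250.5 in KO at 18 h. It fell by 1.11 (SE 0.23, limma adjusted p = 0.00211), and the times overlapped only between WT 1 h replicate 1-2 and KO 18 h replicate 1. Both members in Tnip1, whose product works with A20, fell as well (−1.50 and −0.65), the first with a change of 0.10 where a peak had to cover 50% of the site. The other 3 lay at Traf1, and none was called.

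Enzymes had 7 members near 6 of 16 genes. Nos2 rose, and 3 fell: a second site in Ptges (by 1.26), an intron of Slc7a11, the cystine transporter (by 0.91), and a site 30914 bp from Acod1, which makes itaconate (by 1.48, SE 0.15, limma adjusted p = 3.58e-06, with 0.04 under 50% cover). The first Ptges site had a change of 0.25 (SE 0.26, limma adjusted p = 0.516), and the difference between the 2 Ptges sites was not tested.

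Receptors and surface proteins were the list with the most rises, 4 of 11 members near 8 of 40 genes, with 1 fall. An intron of Cd274, the checkpoint ligand PD-L1 (chr19:29374596-29386915), ranked 17413.5 and 17650 in WT and 18092, 13130 and 23448.5 in KO at 1 h. At 18 h it ranked 7729.5, 6473.5 and 8684.5 in WT and 11542, 6804 and 9081.5 in KO. No rank was shared between the times, and the score rose by 1.10 (SE 0.17, limma adjusted p = 0.000195). The Cd274 site is far wider than the member median of 1012 bp. Its best peak was ranked in each list, so the ranks may belong to different peaks. The intron of Cd44, by contrast, fell by 1.36 (SE 0.18, limma adjusted p = 4.06e-05), from ranks of 1977.5 to 4204 at 1 h to 6086.5 to 9346.5 at 18 h. The promoter of Cd69, an early activation marker, rose by 0.74 (limma adjusted p = 0.00308), and the other 2 rises came from the Tnfrsf1b and Tnfrsf8 region described next. The strongest member of that region fell, but it is nearest to Tnfrsf8, a gene outside the list, and is not counted here. The Cd69 site printed above, 44985 bp downstream of its TSS, was not called (0.04, limma adjusted p = 0.945).

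Interferon, IRF and STAT genes had 7 members near 7 of 39 genes, 2 of which fell and none of which rose. The promoters of Gbp2 (0.07, limma adjusted p = 0.809) and Ifi205 (0.29, limma adjusted p = 0.300), both interferon-induced, were not called, and those of Ifi203 and Gbp5 fell, by 0.38 (SE 0.11, limma adjusted p = 0.0218) and 0.62 (limma adjusted p = 0.0209); under 50% cover the value of Ifi203 was 0.43. Signal brakes had 4 members. Tgif1 rose, and a site 10868 bp upstream of Bcl6, a repressor of inflammatory genes, fell by 1.28 (SE 0.22, limma adjusted p = 0.000498). AP-1 genes had 3 members near 3 of 17 genes, at Fos, Fosl2 and Maff, of which that of Maff fell by 0.31 (limma adjusted p = 0.0248). Of the 9 C/EBP and lineage genes, Bhlhe40, a basic helix-loop-helix repressor, had a member, which fell by 1.27 (SE 0.21, limma adjusted p = 0.000298).

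Members stood mostly alone. With gaps of up to 50 kb allowed, 135 members formed 63 groups and 531 had no other member nearby. The largest groups had 4 members. Of the consensus sites in a span of 86942 bp on chromosome 10 around Btg1, an antiproliferative gene, 4 of 6 were members, and the strongest of them (chr10:96690366-96691664) fell by 1.12. In 24863 bp on chromosome 4 at Tnfrsf8, 4 of 5 sites were members, 3 of them in introns of Tnfrsf8 and 1 between it and Tnfrsf1b (TNF receptor 2). The strongest, in an intron (chr4:145282938-145284664), fell by 2.13 (SE 0.25, limma adjusted p = 1.60e-05), while those at chr4:145259802-145261937 and chr4:145275499-145278372 rose by 0.74 (SE 0.13, limma adjusted p = 0.00065) and 0.70 (SE 0.23, limma adjusted p = 0.0301), so that sites of 1 group moved in opposite directions. When each list was left out in turn, the last of these was called in 10 of 17 fits.

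On chromosome 16, 3 of 4 sites in 16673 bp were members. The first lay in an exon and the second in an intron of Mir155hg, the host gene of the microRNA miR-155, and the third in an exon of Mrpl39, whose TSS was the nearest for all 3. The first (chr16:84702559-84705888) ranked 4392.5 to 14876.5 at 1 h and 12164 to 28007 at 18 h, and fell by 1.25 (SE 0.23, limma adjusted p = 0.00076), with a change of 0.15 under 50% cover. The third fell by 1.13 (SE 0.15, limma adjusted p = 4.87e-05) and the second had a change of −0.10 (limma adjusted p = 0.654). In Ciita, the master regulator of MHC class II genes, all 3 sites of a span of 12212 bp were members and all 3 fell, by 1.24, 1.03 and 0.76. A span of 77614 bp at Pik3r5 and Pik3r6, subunits of PI3-kinase gamma, held 3 members among 11 sites, 2 of which fell.

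Loss of Nur77 was compared at the members next, since the rule pooled the genotypes. Averaged over the 3 times, limma called 3 members and 0.542% of all sites. One was higher in KO (0.150%), as were 0.179% of all sites, and 2 were lower (0.300%), as were 0.363% of all sites. Averaged over 1 and 18 h of LPS, 9 members were called (1.35%), beside 0.949% of all sites. Of these, 6 were higher in KO (0.901%), against 0.322% of all sites, and 3 lower (0.450%), against 0.627%. With 50% cover 7 members were higher and 26 lower, beside 127 and 615 of all sites, and a replicate block gave 1 higher and 3 lower, beside 57 and 299. The member shares rest on few sites, and the median KO minus WT change under LPS was 0.06 among members and 0 over all sites. The members' median was −0.04 with 50% cover, as was that of all sites, 0.01 with all deposited peaks and 0 with the 10000 best peaks. The exact permutation test called 0 of all sites after adjustment. Its smallest possible p under LPS is 0.005, which adjustment over all sites can pass only where many sites reach it, so this 0 says little about the calls. At that test 64 members (9.61%) and 1627 of all sites (4.77%) had an unadjusted p under 0.05.

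The member most clearly lower in KO lay 19679 bp upstream of Slc39a14, a zinc and iron transporter. It ranked 8262.5 and 13625.5 in WT at 1 h and 12568.5, 12674.5 and 13010.5 in WT at 18 h. KO ranks at 1 h were 25716.5, 17010.5 and 23448.5, and at 18 h replicate 3, at 18250.5, had the only peak. The genotypes did not overlap, and the score differed by −0.90 (SE 0.14, limma adjusted p = 0.00502). The promoter of Ifi203 (chr1:173941696-173942966), of the interferon-inducible p200 family, ranked 8262.5 and 9051.5 in WT and 18092, 17010.5 and 18910.5 in KO at 1 h. At 18 h it ranked 14768.5, 15807 and 13372 in WT and 20182, 14306 and 20003.5 in KO, with a difference of −0.68 (SE 0.11, limma adjusted p = 0.00992); the genotypes overlapped at 18 h. The third lay in an intron of Cd244a and nearest to Ly9, both receptors of the SLAM family (−0.93, SE 0.19, limma adjusted p = 0.0309).

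Higher in KO was an intron of Acap2, a GTPase-activating protein (0.74, SE 0.12, limma adjusted p = 0.00899). In KO its ranks were 17010.5, 17010.5 and 18910.5 at 1 h and 8178, 14306 and 14184.5 at 18 h. In WT it had no peak in 1 h replicate 1-2 and ranked 23650 in replicate 3, and at 18 h 23595, 27783.5 and 29226. No WT list reached a KO list, yet under 50% cover the difference was −0.01. Members upstream of D630003M21Rik (0.82), nearest to Gpd2 but 169405 bp away (0.72), in Sgms2, a sphingomyelin synthase (0.64), and in Orm1, an acute phase protein (0.63), were higher in KO as well, with limma adjusted p from 0.0317 to 0.0492. The sixth lay near Cep19 (0.53, limma adjusted p = 0.0284). Of the genes nearest to these 9 members, 1 (Ifi203) was in the lists of LPS response genes.

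The sites around these 9 members were counted in the same contrast, each count including the called member itself. Within 5 Mb of the Ly9 site 15 of 194 consensus sites were called (7.73%), around Ifi203 14 of 219 (6.39%) and around Slc39a14 10 of 226 (4.42%), against 0.949% over all sites; the windows of Ly9 and Ifi203 overlap, as do those of Cep19 and Acap2. Around Cep19 the share was 2.07% (4 of 193), around Gpd2 2.0% (2 of 100), around Acap2 1.75% (3 of 171) and around Sgms2 1.65% (2 of 121). Around D630003M21Rik and Orm1 no site other than the member was called. Depth differed between the genotypes: the last kept peak rested on 6 to 8 reads in the KO 18 h lists and on 19 to 41 in the WT 18 h lists. At 1 h it rested on 33, 6 and 10 reads in KO and on 3 and 13 in WT. The part of position or depth in these calls was not tested.

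The genotype counts depended on single lists. Averaged over the times, the count of 3 became 0 when WT 0 h replicate 3 was omitted and 1 for WT 0 h replicate 1 or 2, any KO 0 h list or WT 18 h replicate 1 or 3, where 0.337% to 0.504% of all sites were called. It became 5 for KO 1 h replicate 1 or 3 (0.782% and 0.665% of all sites), 6 for WT 1 h replicate 1-2 (1.35%) and 7 and 9 for KO 18 h replicates 1 and 2 (1.20% and 1.17%). It became 30 for WT 1 h replicate 3 (4.50% of members, beside 4.17% of all sites). Under LPS, omitting any 1 of the WT 0 h lists left 3 calls, KO 0 h replicate 1 or WT 18 h replicate 1 or 2 left 4, and WT 18 h replicate 3 left 5, beside 0.615% to 0.764% of all sites. Omitting KO 1 h replicate 1 gave 14 calls (2.10%, against 1.30% of all sites). Omitting KO 18 h replicates 1, 2 and 3 gave 23, 31 and 16 (3.45%, 4.65% and 2.40%, against 1.85%, 2.01% and 1.54%). Omitting WT 1 h replicate 3 gave 53, which left the shallowest list alone in its group and assumed to vary like the others. These 53 were 7.96% of members, beside 5.61% of all sites. Without both the narrowest and the shallowest list, a choice made after seeing the data, 23 were called. Over those single omissions the Slc39a14, Ifi203 and Acap2 sites were called under LPS in all 17 fits. The Orm1 and Cep19 sites were called in 11, those of D630003M21Rik and Ly9 in 8, that of Sgms2 in 5 and that of Gpd2 in 4.

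The change from 1 h to 18 h was compared between KO and WT last. In 2 members it differed (0.300%), both with the lower change in KO. Over all sites 0.39% were called, 0.22% with the higher and 0.17% with the lower change in KO. One was the promoter of Tmigd1 (chr11:76901154-76902112), with ranks of 11828 and 14302.5 in WT and 8290.5, 7527 and 4993 in KO at 1 h, and 15549, 13206.5 and 15062 in WT and 20182, 20443 and 24424.5 in KO at 18 h. The KO lists were thus above all WT lists at 1 h and below all of them at 18 h. The other lay 23180 bp upstream of BC017158. Without 1 list this count was 0 (any WT 0 h list), 1 (KO 0 h replicate 1 or 2, WT 18 h replicate 1 or 3), 4 (KO 1 h replicate 2 or 3), 9 (WT 1 h replicate 1-2, KO 1 h replicate 1), 12 (KO 18 h replicate 1 or 3), 15 (KO 18 h replicate 2) or 49 (WT 1 h replicate 3). In the same order of counts, 0.202% to 0.240%, 0.243% to 0.357%, 0.589% to 0.767%, 0.838% to 1.17%, 1.05% to 1.19% and 1.27% of all sites were called. Without WT 1 h replicate 3, 7.36% of members and 5.16% of all sites were called. The exact permutation test, whose smallest possible p here is again 0.005, called 0 of all sites, with 45 members (6.76%) and 1400 of all sites (4.10%) at an unadjusted p under 0.05.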

How the data were processed

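The 17 deposited peak lists, 1 per sample, were analysed. Per the labels and the study's methods, the authors trimmed reads with cutadapt 2.6, mapped them to mm10, removed mitochondrial and duplicate reads and called peaks in each sample. The peak names carry a q-value threshold of 0.001. The deposited fold column is a linear ratio of pileup to background. The deposited p-value and q-value columns are −log10 values, and the deposited score column is 10 times the −log10 q-value. The authors' count comparison (DiffBind 3.0.15) was not repeated, since the lists hold no counts per site.

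Identical intervals were collapsed to the highest −log10 p-value, and the best 24389 per list were kept (ties by fold, chromosome as text, start) and merged with 1 bp of overlap. Read depth at a peak was recovered from fold and p-value, which gave whole reads for 100% of entries (tolerance of 0.05 reads, or 1e-04 of the pileup). Rank scores of all consensus sites were tested with limma 3.58.1 (R 4.3.3), which was tested on simulated data, with 6 group means, trended eBayes and adjustment over all sites, two-sided. Exact permutation tests were an alternative. TSS, exons and introns came from GENCODE vM21, and sequence from GRCm38. Motifs were sought on both strands, and Wilson intervals cover counting error over sites.

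Sites were named by rule: the 10 best mean ranks, the 5 largest changes per direction and contrast, up to 30 members within 100 kb of a listed gene, and the 5 largest groups. The members, gene lists and contrasts were chosen with earlier results of these data known. A further macrophage marker is not reported here.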

Additional observations from a re-analysis of the deposited data

Results flagged for a closer look

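In 2 members the change in rank score from 1 h to 18 h of LPS differed between KO and WT by a test of that difference, the limma interaction term adjusted over all consensus sites. At the promoter of Tmigd1 the change in KO minus that in WT was −1.51 (SE 0.29, limma adjusted p = 0.0323). The mean scores were 0.91 in WT and 1.85 in KO at 1 h and 0.74 in WT and 0.18 in KO at 18 h. At the site upstream of BC017158 the difference was −1.07 (SE 0.19, limma adjusted p = 0.0228). There the mean scores were 0.48 and 0.81 at 1 h and 0.92 and 0.18 at 18 h. When each list was left out in turn, the first was called in 9 and the second in 14 of 17 fits. No member was called with all deposited peaks, with sites in at least 4 lists or in the exact permutation test, whose smallest possible p is 0.005. Groups of 3 lists or fewer are too small to look for single outlying lists.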

How the results depend on the processing

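Values are members called, with the share of all sites in parentheses. For 18 h against 1 h (308 members), keeping the 10000 best peaks gave 73 (7.35%) and all deposited peaks 203 (35.7%). Peaks that cover 50% of the site gave 125 (8.81%) and the exact permutation test 133 (13.4%). Omitting 1 list outside WT at 1 h gave 266 to 353 (24.4% to 34.6%). For KO against WT (3 members), the 10000 best peaks and all deposited peaks gave 1 each (0.205% and 0.463%), 50% cover 27 (2.79%) and the exact permutation test 0 (66 members and 2374 of all sites at an unadjusted p under 0.05), and leaving out 1 list 0 to 30. Under LPS (9 members), all deposited peaks gave 0 (0.413%), 50% cover 33 (2.17%) and the exact permutation test 0, and leaving out 1 list 3 to 53. For genotype by time (2 members), a linear rank percentile gave 5 (0.589%), the 10000 best peaks 7 (0.249%), all deposited peaks 0 (0.214%), 50% cover 95 (6.05%), sites in at least 4 lists 0 (0.0854%) and the exact permutation test 0, and leaving out 1 list 0 to 49. The 95 were all lower, as were 2005 of the 2067 sites called under that setting, where the median was −0.51 among members and −0.37 over all sites. The highest genotype counts over single omissions came without WT 1 h replicate 3, and the shares of all sites beside them are given above. Without the narrowest and the shallowest list together, chosen after seeing the data, the 3 genotype counts were 13, 23 and 18 (2.13%, 2.37% and 1.88%). The causes were not tested.

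With the replicate number as a block (replicate block), the counts were 239, 0, 4 and 4 in the same order (21.9%, 0.820%, 1.04% and 0.715% of all sites). Lists with the same number did not deviate together (r from −0.226 to 0.206 over 35 pairs, against −0.276 to 0.404 over 70 pairs of different number). The groups were small and the lists differed in depth and peak width. These r therefore cannot decide whether lists of the same number share a mouse or culture.

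The number of members (666) was 261 with the 10000 best peaks (17 of the 666 among them), 106 with 50% cover, 166 when every LPS list and no 0 h list was asked for, 40 when absence was judged in whole 0 h lists, and 703 to 782 when 1 list was left out. With ties ordered by chromosome number it was 678, with 636 of the 666 among them. Within 50 and 200 bp of the summit, the shares of members were 16.7% and 33.9% for AP-1, 13.1% and 22.8% for NF-kB, 4.50% and 12.8% for ISRE, 12.3% and 39.9% for C/EBP, 3.90% and 9.91% for PU.1, and 0.601% and 3.60% for NBRE. With a −log10 q-value of at least 5, the share with a peak in KO 0 h replicate 3 was 14.1%.

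The members' median KO minus WT over all times (0.04) was −0.09 with all deposited peaks and −0.03 with 50% cover, and the median genotype by time difference (0.01) was −0.17 with all deposited peaks. Among called values of the named sites, the sign turned only under 50% cover. The change from 1 h to 18 h was then 0.33 for Mmp14, 0.17 for D10Jhu81e, 0.00797 for Trps1, 0.0987 for Tnip1, 0.15 for the first Mir155hg site, 0.0378 for Acod1, 0.43 for Ifi203, 0.17 for Ly9 and 0.0165 for the Pik3r6 site. For Acap2, KO minus WT was −0.00531 over all times and −0.00797 under LPS.

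Ranks compare sites within a list and cannot show a change shared by most sites. The shallowest list kept peaks down to 3 reads, so weak sites could not be ranked there, and absence from the shorter KO 0 h lists does not show a closed site.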
